A study of Rattus norvegicus with 12 samples.

Results

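The miR-15 and miR-16 family and its close relatives miR-103 and miR-107 were followed in rat milk whey and serum through 7 of the 388 rat miRNAs on the array, which names them rno-miR-15b, rno-miR-16, rno-miR-195, rno-miR-497, rno-miR-322, rno-miR-103 and rno-miR-107. The prefix rno- stands for the rat and is mostly left out here. They were taken by name, as a list of miRNAs that share most of their seed. The seed is the short stretch near the 5′ end of a miRNA that pairs with its targets. Serum was collected on day 21 postpartum, at weaning, and whey on days 2 (colostrum), 9 and 16 (mature milk) from the same 3 F344/N dams, which were adult and bought pregnant. Milking followed an oxytocin injection, and fat, cells and casein had been spun and filtered out of the whey. Each of the 12 arrays held 70 ng of total RNA of 1 rat, so that signals compare equal masses of RNA and not equal volumes of fluid. In bulk fluids such as these, fewer releasing cells and less RNA released per cell cannot be told apart.

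Serum was hybridized together with day 16 whey on 1 slide, and day 9 together with day 2 whey on another. Within each slide every group had its own row of arrays and each rat its own column. Row and group, and column and rat, therefore cannot be told apart within a slide. Serum and day 16 whey differed in both fluid and day of collection, which cannot be told apart. The summed signal of all miRNAs was 90002 to 161389 on serum arrays, and 22491 to 26246, 70752 to 106976 and 76845 to 120359 on the arrays of day 2, day 9 and day 16 whey. The scanner software detected 145 to 165 miRNAs in serum and 109 to 125, 121 to 136 and 122 to 140 in whey of the 3 days. All 7 miRNAs entered the fit, which covered the 188 miRNAs detected on at least 1 array.

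A miRNA guides the silencing complex to messenger RNAs that match its seed, lowering their translation and stability. In mammals, miR-15 and miR-16 and their relatives are known for restraining the cell cycle through cyclins and for lowering the survival protein BCL2, and miR-16 is abundant in blood cells. miR-103 and miR-107 lie within introns of pantothenate kinase genes and are known in mice for reducing insulin sensitivity, miR-195 is known in mice for the arrest of heart muscle cell division after birth, and miR-322 is the rodent form of human miR-424.

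The mature sequences below, from RefSeq with GRCr8 coordinates, are shown because they set the 2 groups apart and show which members the array had to tell from each other. They run 5′ to 3′, with the seed (bases 2 to 8) in capitals, and miR-503 is added because it too held AGCAGC within bases 1 to 8.
miR-15b: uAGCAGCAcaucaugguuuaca
miR-16: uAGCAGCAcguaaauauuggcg
miR-195: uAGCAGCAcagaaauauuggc
miR-497: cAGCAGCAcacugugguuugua
miR-322: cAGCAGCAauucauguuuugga
miR-503: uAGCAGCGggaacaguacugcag
miR-103: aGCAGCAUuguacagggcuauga
miR-107: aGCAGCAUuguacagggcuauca

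The seed AGCAGCA was common to miR-15b, miR-16, miR-195, miR-497 and miR-322. In miR-103 and miR-107 the run AGCAGCA began at base 1 instead of base 2, and their seed was GCAGCAU. In all, 8 of the 327 array miRNAs that matched a RefSeq mature sequence (2.45%), the 7 members and miR-503, held AGCAGC on the sense strand within bases 1 to 8. The rest of the 388 array miRNAs were not searched. Outside the seed the members differed by 1 to 11 bases within a seed group. miR-107 differed from miR-103 by G22C alone, and miR-195 differed from miR-16 by G10A and U11G over the 21 bases compared, where positions count from 1 at the 5′ end. Each member had 2 probes of 10 spots an array, all 14 probes matched the mature sequence exactly, and the probes of these 4 miRNAs covered the differing bases. How much of each signal came from the near-identical partner was not tested.

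The genes of several members lie side by side. miR-15b (chr2:155555197-155555218) and miR-16 (chr2:155555343-155555364) stood 124 bases apart on the plus strand, within the protein-coding gene Smc4, a condensin subunit. miR-497 (chr10:55450172-55450193) and miR-195 (chr10:55450509-55450529) stood 315 bases apart on the plus strand, with no other RefSeq gene over them. miR-322 (chrX:137726198-137726219) and miR-503 (chrX:137725899-137725921) stood 276 bases apart on the minus strand within the long non-coding RNA LOC102550366. miR-107 (chr1:241750431-241750453, minus strand) lay within Pank1. miR-103 (chr3:138963278-138963300, plus strand) lay within Pank2, and a further miR-103 gene, Mir103a1, lay within Pank3 on chromosome 10. Pank1, Pank2 and Pank3 encode pantothenate kinases, the enzymes that begin coenzyme A synthesis.

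All 7 members were detected on all 9 whey arrays. In serum, 6 were detected on all 3 arrays and miR-322 on 1 of 3. No spot of any member was saturated, of 1680. Levels below are log2 of the total signal per miRNA after quantile normalization over the 12 arrays, as mean ± SD of 3 rats. Differences come from limma with their standard error (SE) and a p-value adjusted over the 188 miRNAs by the Benjamini-Hochberg method, and a miRNA was called at an adjusted p under 0.05.

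Between serum and day 16 whey, which shared a slide, the families split. miR-16 was higher in serum, miR-322, miR-103, miR-107 and miR-195 were lower, and miR-15b and miR-497 were not called. That is 1 of 7 higher and 4 of 7 lower, where 36.2% of all tested miRNAs were higher and 38.8% lower, so that the share higher lay below the background and the share lower above it; neither was tested against it. The levels of 5 of 7 members did not overlap between serum and day 16 whey, as for 76.6% of all tested miRNAs. The median difference of the members was -1.81, against 0.11 over all tested miRNAs.

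rno-miR-16 had total signals of 24622, 15725 and 11332 in serum of rats 1 to 3. In whey they were 865, 1027 and 956 on day 2, 2471, 3518 and 3038 on day 9, and 1869, 4313 and 2538 on day 16. Every serum array was above every whey array. After normalization its level was 13.12 on each serum array, against 11.34 ± 0.18 in day 16 whey (difference 1.78, SE 0.13, adjusted p = 6.1e-07, higher in 3 of 3 rats). Without normalization the difference was 2.58 (adjusted p = 5.6e-05). The levels were the same on all serum arrays, and on all day 9 arrays at 11.72, because miR-16 held the same place in the order of signals on each, which quantile normalization turns into 1 value. An SD of 0 there is not a measure of biological spread. The fit pools the spread of all groups, so these ties make the SE and p-value of miR-16 smaller in every comparison. The same holds for miR-107, whose levels were tied on the day 16 arrays.

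rno-miR-15b, from the same host gene, had total signals of 2243, 1221 and 1018 in serum, against 470, 1166 and 722 in day 16 whey. The groups overlapped, with rat 2 nearly equal in both fluids. The normalized levels were 9.77 ± 0.38 in serum and 9.53 ± 0.20 in day 16 whey, with a difference of 0.24 (95% interval -0.16 to 0.65, adjusted p = 0.25). A difference of either sign up to these bounds is therefore compatible with the 3 rats. miR-15b was called higher in serum without normalization (0.94, adjusted p = 0.042) and when arrays were scaled to the upper quartile of the miRNAs detected on all of them (0.53, adjusted p = 0.017).

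rno-miR-195 had total signals of 188, 221 and 80.5 in serum, against 222, 323 and 290 in day 16 whey. The highest serum array lay just under the lowest day 16 array. On the serum array of rat 3, only 0.5 of the miR-195 spots stood well above background. The normalized levels were 6.30 ± 0.53 in serum and 8.11 ± 0.25 in day 16 whey (difference -1.81, SE 0.42, adjusted p = 0.0029, lower in 3 of 3 rats). Without normalization the difference was -0.88 with an adjusted p of 0.16, and with normexp background correction, another way to remove background, -0.97 (adjusted p = 0.0092).

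Its genomic neighbour rno-miR-497 had total signals of 481, 541 and 212 in serum and 154, 231 and 203 in day 16 whey. These ranges overlapped through rat 3. After normalization the levels were 7.74 ± 0.44 in serum and 7.66 ± 0.21 in day 16 whey, a difference of 0.08 with a 95% interval of -0.68 to 0.84 (adjusted p = 0.84). On day 2 arrays 0.5 to 0.7 of the spots of miR-497 stood well above background, the lowest share of any member in whey.

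**Figure D1:**
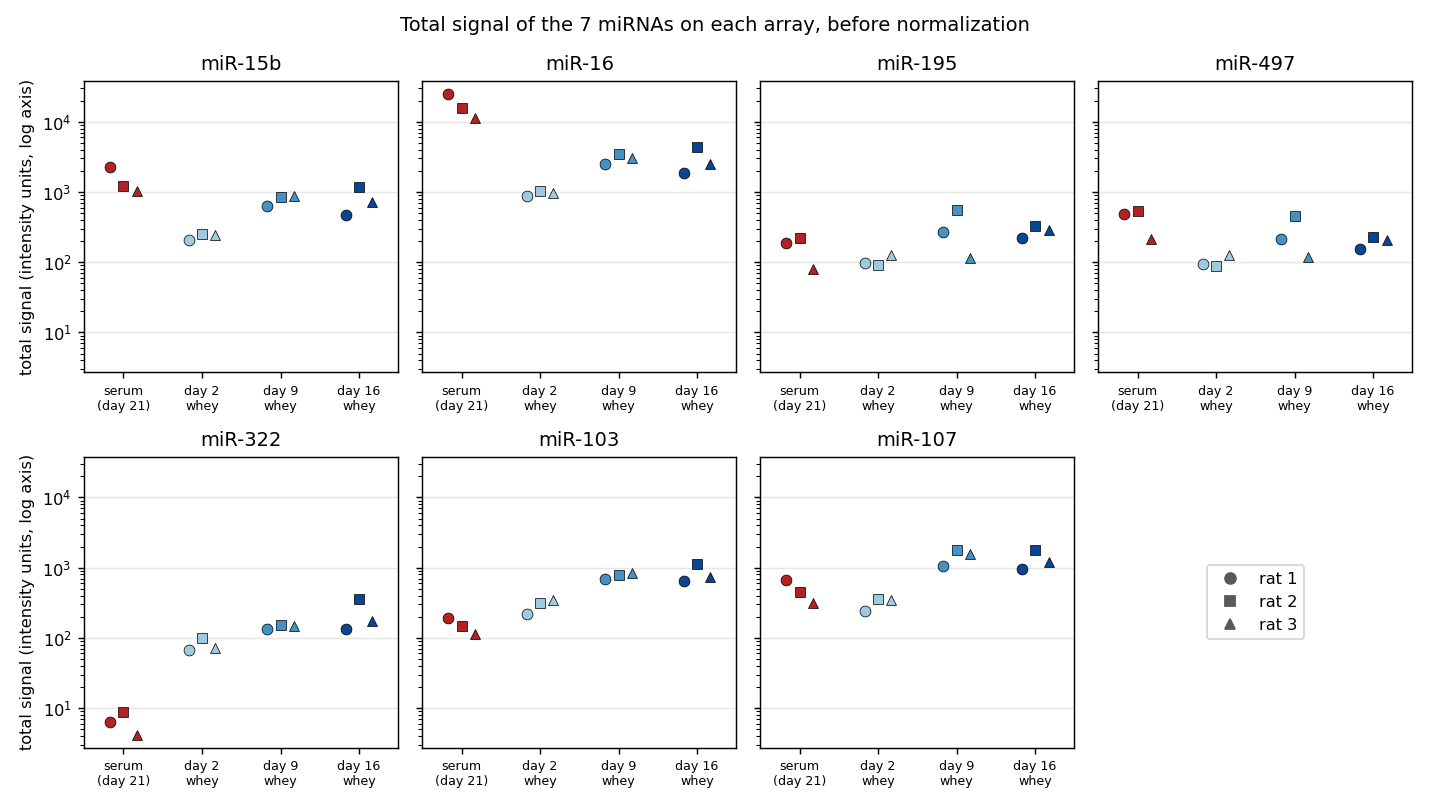
Total signal per miRNA before normalization (intensity units, log axis) of each of the 7 members in serum and in day 2, day 9 and day 16 whey; each point is 1 array and each symbol 1 rat. miR-16 was brighter on all serum arrays than on any whey array, and miR-322 lay at 4.20 to 8.83 in serum and at 66.2 or above on every whey array.

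rno-miR-322 was near or below background in serum. Its total signals were 6.43, 8.83 and 4.20 in serum, against 133, 360 and 171 in day 16 whey, and 0 to 0.05 of its spots stood well above background in serum. All 3 serum levels (1.95 ± 0.36) lay below the background limits of their arrays, 2.99 to 3.60, where the limit is the dimmest normalized level of a miRNA well above background. With each serum array set to that limit, miR-322 was 19.4-fold lower in serum than in day 16 whey (7.64 ± 0.29). On the same footing it was 18.2-fold lower than in day 9 whey and 21.2-fold lower than in day 2 whey. The limit is that of the dimmest such miRNA, so these folds are not a sure minimum for miR-322. On the serum array of rat 3, miR-195 had a level of 5.83 with only 0.5 of its spots well above background. The fit itself used the measured levels and gave a difference of -5.69 to day 16 whey (adjusted p = 6.7e-09, lower in 3 of 3 rats). The folds also rest on the background as the scanner software subtracted it. With normexp, run with an offset that is added to every spot, the difference was -1.73 (adjusted p = 1.9e-05), smaller than that of miR-103 under the same correction.

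rno-miR-103 had total signals of 189, 150 and 114 in serum, against 638, 1143 and 747 in day 16 whey. No serum array reached a day 16 array, and in serum only 0.5 to 0.8 of the miR-103 spots stood well above background. The normalized level was 6.16 ± 0.16 in serum and 9.72 ± 0.09 in day 16 whey, 11.8-fold lower in serum (difference -3.56, SE 0.13, adjusted p = 5.4e-09, lower in 3 of 3 rats). The difference was smaller without normalization, at -2.47 (adjusted p = 1.7e-05), and with normexp, at -2.33 (adjusted p = 7.6e-09).

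rno-miR-107 had total signals of 666, 449 and 309 in serum and 959, 1760.1 and 1194 in day 16 whey, again without overlap. Its level was 8.12 ± 0.29 in serum, against 10.19 on each day 16 array, where its place in the order of signals was the same. It was thus 4.21-fold lower in serum (difference -2.07, SE 0.16, adjusted p = 1.1e-06, lower in 3 of 3 rats). Without normalization the difference was -1.48 (adjusted p = 0.0030). In 6 of the 7 members the direction of the serum difference was the same in every alternative normalization; for miR-15b, scaling to the upper quartile of all miRNAs gave -0.013.

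Over the 3 rats the group means of the members fell in different orders. miR-103, miR-322 and miR-195 had serum lowest and their 3 whey days overlapping, and miR-107 had serum lowest, then day 2, day 16 and day 9 whey, each without overlap with the next. miR-16 had serum highest, without overlap with day 2 whey below it. The serum, day 9 and day 16 levels of miR-15b overlapped one after the other, with day 2 whey below, and all neighbouring groups of miR-497 overlapped.

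**Figure D2:**
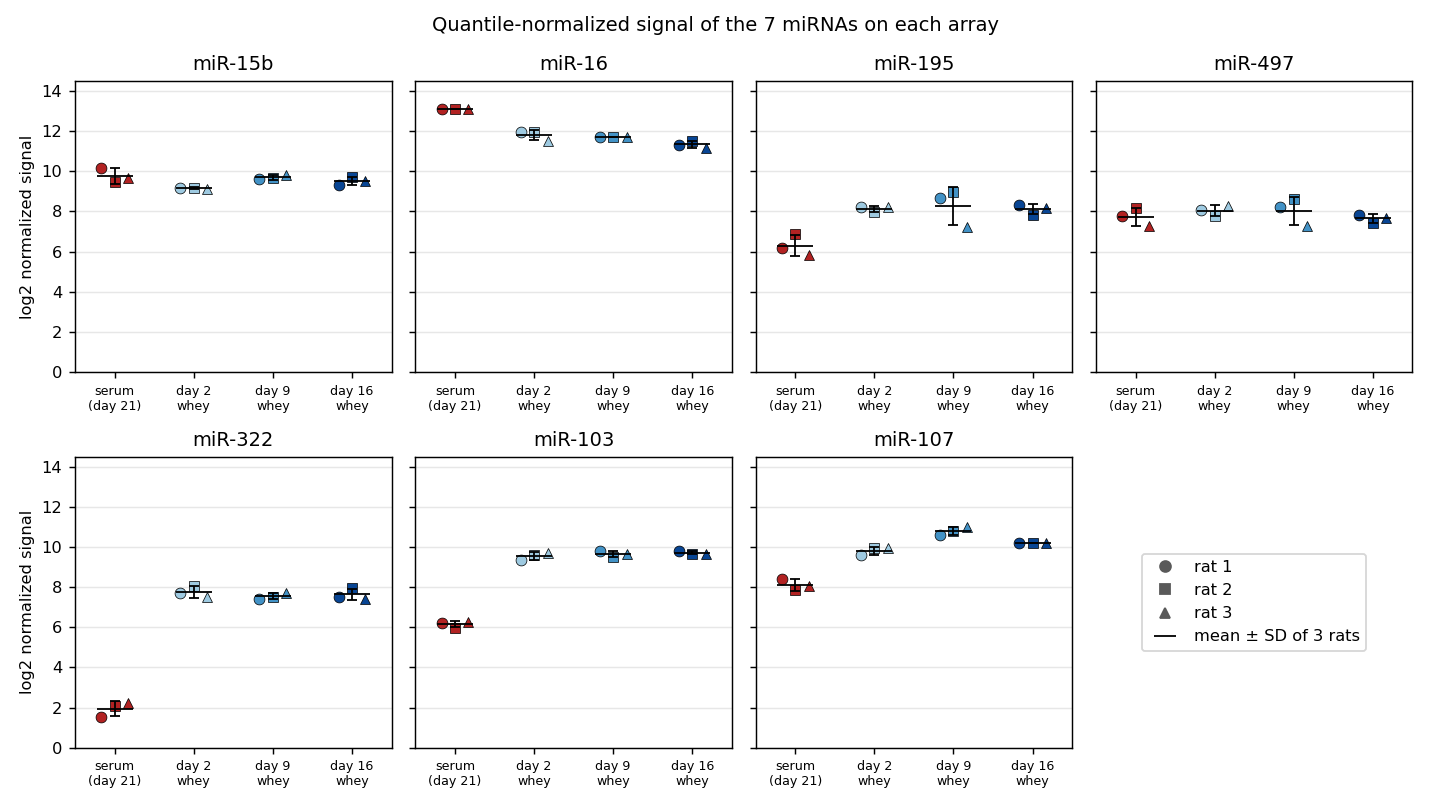
Quantile-normalized log2 signal of the 7 members on each array, with the mean and SD of 3 rats in each group. miR-103 averaged 6.16 in serum and 9.55 to 9.72 in whey, while miR-497 averaged 7.74 in serum and 7.66 to 8.04 in whey; points that share 1 value hold the same place in the order of signals on their arrays.

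Between day 9 and day 2 whey, within the other slide, miR-107 and miR-15b were higher on day 9, which is 2 of 7 members higher and 0 of 7 lower, where 28.2% of all tested miRNAs were higher and 17% lower. The share called higher therefore lies at the background. The levels of 2 of 7 members did not overlap between the days, where 51.1% of all tested miRNAs did not. The median difference was 0.12 over the members and 0.08 over all tested miRNAs.

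miR-107 had total signals of 1061, 1786 and 1560.3 on day 9, against 243, 362 and 349 on day 2. No arrays of the days overlapped. The normalized level was 10.80 ± 0.19 on day 9 and 9.83 ± 0.20 on day 2 (difference 0.97, SE 0.16, adjusted p = 0.00079, higher in 3 of 3 rats). This call held in all 23 alternatives, with differences of 0.86 to 2.20.

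miR-15b had total signals of 623, 846 and 885 on day 9, against 208, 253 and 246 on day 2, also without overlap. The normalized level was 9.70 ± 0.11 on day 9 and 9.17 ± 0.04 on day 2 (difference 0.53, SE 0.18, adjusted p = 0.037, higher in 3 of 3 rats). The call was lost with the rat as a block (adjusted p = 0.070), in the Tukey-Kramer test of the methods (0.18), with all array miRNAs in the fit (0.079) and without any array of day 9 or day 2 whey or without rat 3 of day 16 whey (0.054 to 0.11).

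The other 5 members were not called between days 9 and 2. miR-103 differed by 0.12 (95% interval -0.18 to 0.42) and miR-16 by -0.08 (-0.38 to 0.21). The interval of miR-322 was -0.71 to 0.28. Those of miR-195 (-0.80 to 1.11) and miR-497 (-0.77 to 0.74) were wide, because both were dim in the day 9 whey of rat 3. Here miR-195 had levels of 8.67, 8.95 and 7.21 in rats 1, 2 and 3 on day 9, against 8.20, 7.97 and 8.20 on day 2. miR-497 had 8.20, 8.60 and 7.28 on day 9, against 8.08, 7.77 and 8.29 on day 2. Without that array the differences between day 9 and day 2 were 0.67 for miR-195 (adjusted p = 0.099) and 0.35 for miR-497 (adjusted p = 0.37), and neither was called.

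Before normalization all 7 members were brighter on day 9 than on day 2, by 0.89 for miR-322 to 2.20 for miR-107, where the median of all tested miRNAs was 1.13. The same held for day 16 against day 2, by 0.93 for miR-497 to 2.01 for miR-107, with a median of 1.28. Summed signals on day 2 were lower for the array as a whole, as given above.

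Day 16 and day 2 whey lay on different slides, so that slide and day cannot be told apart. Of the 7 members, 0 were called higher and miR-16 was called lower, where 32.4% of all tested miRNAs were higher and 22.9% lower. miR-16 had a level of 11.34 ± 0.18 on day 16 and of 11.80 ± 0.25 on day 2, with overlapping arrays (difference -0.46, SE 0.13, adjusted p = 0.012). This direction depended on the scaling: scaling to the upper quartile of all miRNAs gave 0.47 (adjusted p = 0.0064), and no normalization gave 1.53. miR-15b (0.36, adjusted p = 0.12) and miR-107 (0.36, adjusted p = 0.090) were not called, though their arrays of the 2 days did not overlap, as for 61.2% of all tested miRNAs. miR-107 was called higher under 5 of the alternatives and without rat 1 of serum.

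Day 16 and day 9 whey, also on different slides, differed in 0 of 7 members by limma, where 4.26% of all tested miRNAs were higher and 3.19% lower. At an unadjusted limma p under 0.05 were 2 of 7 members and 46 of the 188 miRNAs, which are similar shares. miR-107 had 10.19 on day 16, against 10.80 ± 0.19 on day 9 (difference -0.61, SE 0.16, adjusted p = 0.056). miR-16 had 11.34 ± 0.18 on day 16, against 11.72 on day 9 (difference -0.38, SE 0.13, adjusted p = 0.092). The levels of these 2 members did not overlap between the days, as for 27.1% of all tested miRNAs. The Tukey-Kramer test, with its p-values also adjusted over the 188 miRNAs, called 0 members. Before that adjustment 1 member was under 0.05 in this test, as were 22 of the 188 miRNAs.

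**Figure D3:**
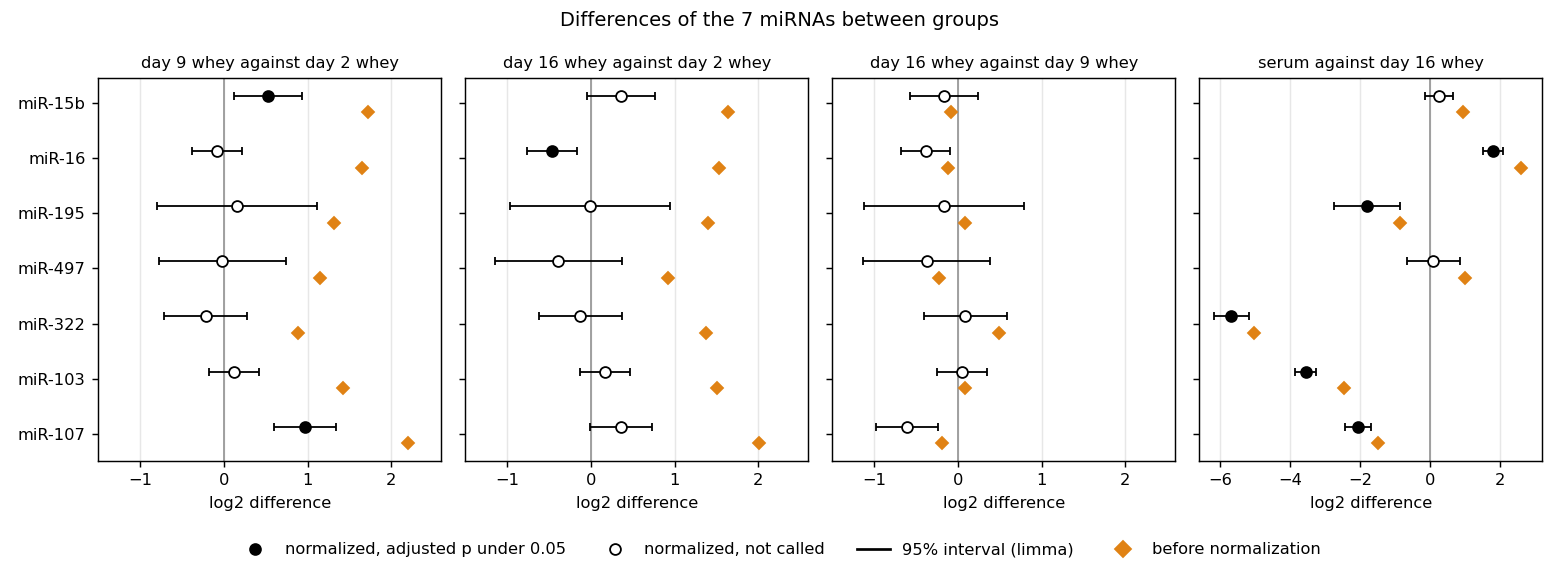
Log2 differences of the 7 members in the 4 comparisons: circles are limma's differences of normalized levels with 95% intervals, filled where called, and diamonds are differences of mean log2 total signal before normalization. miR-107 and miR-15b were called higher on day 9 than on day 2, and 5 members were called between serum and day 16 whey; the diamonds lie to the right of the circles wherever day 2 whey is compared.

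The ratio of partner miRNAs on the same array does not depend on the scale of that array. It was taken from total signals for neighbours (miR-16 over miR-15b, and miR-195 over miR-497) and for the near-identical miR-107 and miR-103. Since probes differ in brightness, a ratio has no meaning by itself and was compared between groups only. The test was an exact two-sided permutation of labels within rats, with 6 tests adjusted together.

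The log2 ratio of miR-16 over miR-15b was 3.46, 3.69 and 3.48 in serum of rats 1, 2 and 3. In whey it was 2.06, 2.02 and 1.96 on day 2, 1.99, 2.06 and 1.78 on day 9, and 1.99, 1.89 and 1.81 on day 16. The ratio was higher in serum than on any whey array, by 1.59 on average (exact permutation p = 0.016, the smallest that 64 arrangements can give; adjusted p = 0.031, in 3 of 3 rats).

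The ratio of miR-195 over miR-497 was -1.36, -1.29 and -1.40 in serum. In whey it was 0.03, 0.08 and -0.01 on day 2, 0.35, 0.27 and -0.02 on day 9, and 0.52, 0.48 and 0.51 on day 16. It was lower in serum than on any whey array, by -1.60 on average (exact permutation p = 0.016; adjusted p = 0.031, in 3 of 3 rats). The day 9 array of rat 3, which was dim for both miRNAs, kept a ratio close to those of day 2.

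The ratio of miR-107 over miR-103 was 1.82, 1.58 and 1.44 in serum. In whey it was 0.14, 0.21 and 0.03 on day 2, 0.62, 1.18 and 0.90 on day 9, and 0.59, 0.62 and 0.68 on day 16. It was higher in serum than on any whey array, by 1.06 on average (exact permutation p = 0.016; adjusted p = 0.031, in 3 of 3 rats). Both miRNAs were lower in serum, and miR-103 by more.

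Each of these 3 differences kept its direction with normalized values, with another background correction and without any of the rats. With 2 rats no p under 0.0625 is possible. The day 16 arrays, on the slide of the serum arrays, gave the same directions as the whey days together.

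Between day 2 and mature milk whey the partner ratios were not called. miR-107 over miR-103 was 0.12 ± 0.09 on day 2, against a mean of 0.76 over days 9 and 16, without overlap. The difference of -0.64 had an exact permutation p of 0.037, the smallest that 27 arrangements can give, and an adjusted p of 0.056. miR-195 over miR-497 differed by -0.32 (exact permutation, adjusted p = 0.13), with 0.03 ± 0.04 on day 2, 0.20 ± 0.20 on day 9 and 0.51 ± 0.02 on day 16. miR-16 over miR-15b differed by 0.09 (exact permutation, adjusted p = 0.15). This value depended on the processing, with 0.72 from normalized levels (exact permutation, adjusted p = 0.056) and -0.11 with normexp (exact permutation, adjusted p = 0.044).

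**Figure D4:**
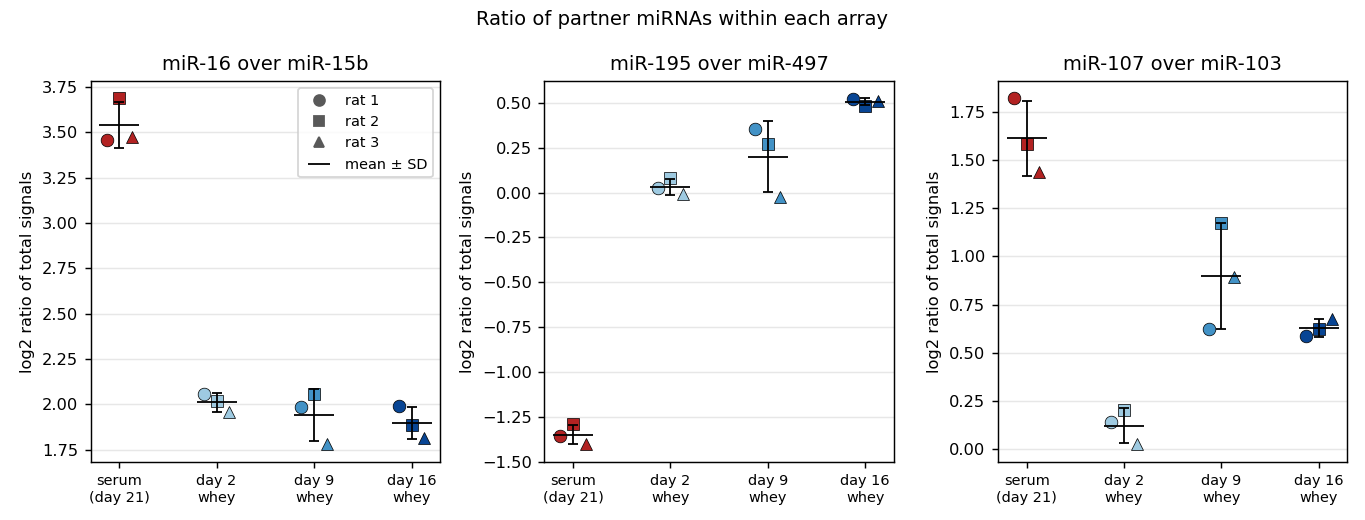
Log2 ratio of the total signals of 2 partner miRNAs on each array, with the mean and SD of 3 rats; each symbol is 1 rat. The serum ratios stand apart from all 9 whey arrays in each pair, at 3.54 for miR-16 over miR-15b, -1.35 for miR-195 over miR-497 and 1.61 for miR-107 over miR-103.

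The 2 probes of a miRNA differ in length by a base and read the same molecule. Their differences had the same sign in 7 of 7 members for serum against day 16 whey, for day 9 against day 2 and for day 16 against day 2, and in 6 of 7 for day 16 against day 9, where miR-497 gave 0.07 and -0.24. For day 9 against day 2 whey the probes of a member were within 0.39 of each other. The widest disagreement was that of miR-195 between serum and day 16 whey, where the shorter probe gave -2.02 and the longer probe -0.69 before normalization. For miR-16 the 2 probes gave 2.92 and 2.52, and for miR-103 -2.90 and -2.43.

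**Figure D5:**
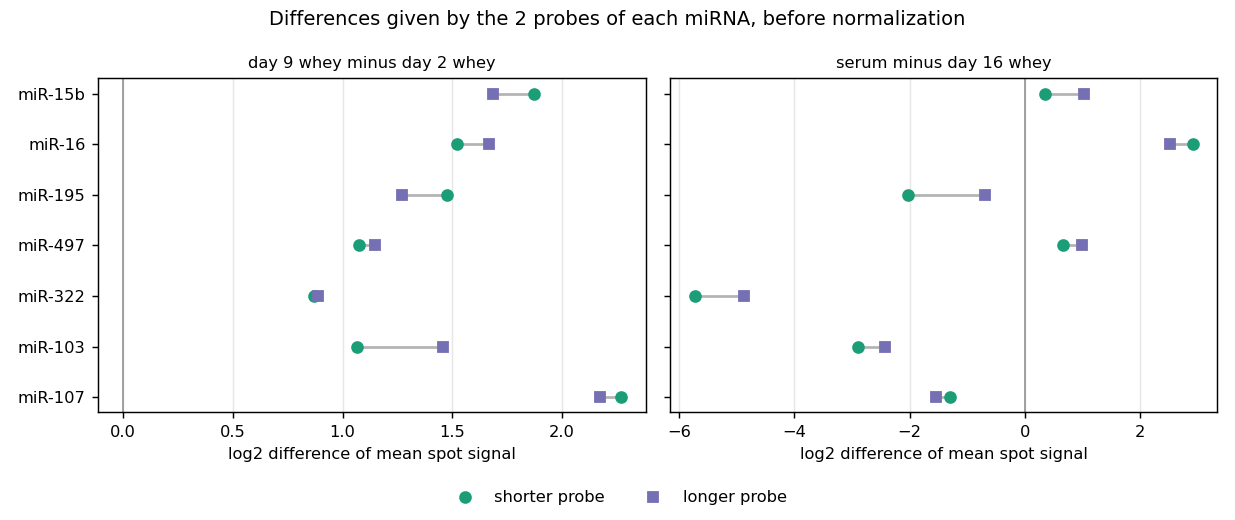
Log2 differences of the mean spot signal before normalization for the shorter and the longer probe of each member, day 9 minus day 2 whey and serum minus day 16 whey. Both probes of every member fall on the same side of 0 in both panels, and those of miR-195 are farthest apart, at -2.02 and -0.69 for serum minus day 16 whey.

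Other miRNAs of the same loci, taken from a list of 13 other arms and neighbours, were mostly not seen. Of the 6 on the array, miR-503, miR-351, miR-450a and miR-322* were detected on 0 of 12 arrays. miR-542-3p was detected on 1 day 16 array and miR-542-5p on all 12. miR-322 was thus detected on every whey array while miR-503, its neighbour and seed relative, was detected on none, which says nothing about their amounts since probes differ in brightness.

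Across the 12 arrays, the miRNAs whose normalized levels ran most like each member differed between members (Pearson r, out of 136 miRNAs detected on at least 6 arrays). The arrays come from 3 rats and 4 groups, so that r mostly carries the gap between serum and whey, and r within the 9 whey arrays is given beside it as a description. miR-103 ran most like miR-200c (r = 0.999 over 12 arrays, 0.914 in whey), followed by miR-141 and miR-96. miR-322 ran most like miR-141 (0.995, but 0.265 in whey), let-7c and miR-200c. miR-107 ran most like miR-291a-5p (0.967, 0.858 in whey), miR-28 and miR-294.

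For miR-16 the most alike was miR-93 (0.977 over 12 arrays, 0.879 in whey), followed by miR-18a and miR-92a. For miR-15b it was miR-34a (0.836, 0.968 in whey), followed by miR-23b and miR-29a. miR-195 ran most like miR-143 (0.932, 0.843 in whey), then miR-1224 and miR-205, and miR-497 most like miR-27b (0.614, 0.829 in whey), miR-195 and miR-143.

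Among the members themselves, miR-195 and miR-497 had the highest r within whey, 0.888, against 0.603 over all 12 arrays. miR-103 and miR-107 had 0.362 within whey and 0.935 over all arrays, and miR-16 and miR-15b -0.166 and 0.387. The day 9 array of rat 3, low in miR-195 and miR-497, also had miR-143 at 9.25, against 11.52 and 11.94 in rats 1 and 2. It was the only whey array on which the erythroid miR-451 was detected, at a low total signal of 9.97. Another blood marker, the myeloid miR-223, was highest among whey arrays in rat 2 on day 16. Its level there was 8.60, against 6.58 on the day 9 array of rat 3.

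Most of the listed markers of blood and epithelial cells differed between serum and day 16 whey. Summed normalized signals of the 5 epithelial markers (miR-200a, miR-200b, miR-200c, miR-141 and miR-429) were 85.3 to 217 in serum, against 7474 to 8343 in day 16 whey, and miR-141 was detected on no serum array. The erythroid miR-451 had total signals of 11967 to 27728 in serum and of at most 1.96 in day 16 whey, while miR-144, the other erythroid marker, was detected on no array. The 3 myeloid markers summed to 3965 to 3971 in serum, against 49.2 to 412 in day 16 whey. Among them, the mean log2 level of miR-223 was 11.94 in serum and 6.66 in day 16 whey. That of miR-142-5p was 4.10 and 0.95, while miR-142-3p was not higher in serum, at 3.15 and 3.43. The liver miR-122 had 983 to 1570 in serum, against 1.97 to 4.70 in day 16 whey, and miR-150, the 1 lymphocyte marker on the array, 155 to 369, against 1 to 1.32. The 2 endothelial and platelet markers, miR-126 and miR-126*, summed to 43.8 to 80.6 in serum, against 2 to 2.03 in day 16 whey. Here 1 is the floor of each marker, and miR-126* was detected on no array. miR-23a, which serves as a reference for haemolysis and not as a marker of a cell type, had 2574 to 2932 in serum, against 467 to 557. The part of the cell types that these markers stand for in the serum differences of the 7 miRNAs was not tested.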

How the data were processed

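The authors labelled 70 ng of RNA per sample with cyanine 3, and scanned the arrays with Agilent Feature Extraction 9.5.3.1; the deposited intensities of spots and miRNAs have the background subtracted but had no scaling across arrays. Here quantile normalization, as in the methods, was run on the total intensity of 388 miRNAs over 12 arrays, with a floor of 1 before taking log2. A model with 4 group means was fitted to 188 miRNAs (limma 3.58.1, R 4.3.3) with Benjamini-Hochberg adjustment and two-sided tests, and was tested on simulated data. Partner ratios were tested in Python 3.11.15. The number of arrays limits the precision. A deposited table with 12 columns without sample names was not used. By the labels, replicate numbers are the rats and so pair the samples. The check of this pairing was the correlation of deviations from group means between 2 groups. It gave -0.071 to 0.43 within a rat (median 0.043 over 18 pairs). Between rats it gave -0.37 to 0.21 (median -0.034 over 36 pairs). These ranges overlap, so the pairing rests on the labels and the check does not show it. No 2 arrays among 66 pairs were identical. The members, lists and rules for naming (all 7 members, the 3 most alike miRNAs for each, relatives by seed and locus, and cell markers) were chosen with earlier results of these data known. Alternatives were 3 other scalings, normexp background correction, a floor of 5, other filters, a rat block, a trend with intensity, the Tukey-Kramer test, fewer arrays in the fit and leaving out each array.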

Additional observations from a re-analysis of the deposited data

How the results depend on the processing

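Each of the 4 comparisons was repeated under 23 alternatives. The p-values of the Tukey-Kramer test were adjusted over the 188 miRNAs too. Before that adjustment, 1 member was under 0.05 in this test for day 16 against day 2. Leaving out single arrays gave 1 to 2 members higher on day 9 than on day 2, 0 to 2 higher and 0 to 1 lower on day 16 than on day 2, and 0 to 1 lower on day 16 than on day 9. Serum against day 16 whey kept 1 higher and 4 lower without any array. For day 9 against day 2, 4 members were higher with upper-quartile scaling of all miRNAs and 4 without normalization, and 1 with all miRNAs in the fit, 1 with the rat as a replicate block and 1 by the Tukey-Kramer test. The block changed no other call of a member. For day 16 against day 2, members higher numbered 1 with upper-quartile scaling of miRNAs detected on all arrays, 4 with that of all miRNAs, 6 without normalization, 2 with normexp and 2 with only the compared arrays; members lower numbered 0 under those settings except normexp, and 0 by the Tukey-Kramer test. For day 16 against day 9, 1 member was lower with normexp, a floor of 5, the intensity trend or only the compared arrays. For serum against day 16 whey, 2 were higher with upper-quartile scaling of miRNAs detected on all arrays or without normalization.

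Some differences changed sign, among them that of miR-16 on day 16 against day 2, which was called at -0.46. Those of day 9 against day 2 were miR-16 at 0.45 and 0.66 under the upper-quartile scalings and 1.65 without normalization, miR-497 at 0.16 (upper quartile of all miRNAs), 1.15 (no normalization) and 0.32 (normexp), and miR-322 at 0.89 and 0.50 under the last 2 settings. Those of day 16 against day 2 were miR-16 at 0.18, 0.47 and 1.53, miR-195 at 0.053, 0.34, 1.40 and 0.26, miR-322 at 0.032, 0.32, 1.38 and 0.60 (both upper-quartile scalings, no normalization and normexp, in this order), and miR-497 at 0.93 without normalization. For day 16 against day 9, miR-195 was at 0.013 and 0.080 with upper-quartile scaling of all miRNAs and without normalization, and miR-103 at -0.055 with that of miRNAs detected on all arrays. For serum against day 16 whey, miR-15b was at -0.013 with upper-quartile scaling of all miRNAs. The cause was not tested.

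Leaving out single arrays turned miR-195 (-0.17 to 0.67) and miR-497 (-0.28 to 0.35) for day 9 against day 2, miR-195 (-0.12 to 0.12) and miR-322 (-0.29 to 0.028) for day 16 against day 2, miR-195 (-0.68 to 0.14), miR-322 (-0.073 to 0.20) and miR-103 (-0.026 to 0.12) for day 16 against day 9, and miR-497 (-0.14 to 0.32) for serum against day 16 whey. miR-16 on day 16 against day 2 was not called without rat 3 of day 16 (adjusted p = 0.051). miR-15b and miR-107 were called higher on day 16 than on day 2 without rat 1 of serum (adjusted p = 0.021 and 0.040). miR-107 was called lower on day 16 than on day 9 without rat 1 of day 2 or without rat 1 or 2 of serum (0.038 to 0.044).

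The serum differences of the partner ratios, without 1 rat, were 1.53 to 1.66 for miR-16 over miR-15b, -1.61 to -1.56 for miR-195 over miR-497 and 0.91 to 1.14 for miR-107 over miR-103, with adjusted p-values of 0.125 to 0.1875 in a design that cannot pass. With normexp, miR-16 over miR-15b on day 2 against mature milk whey was -0.11 and miR-107 over miR-103 was -0.61 (exact permutation, adjusted p = 0.044 for both). The slide as a random block could not be estimated, since each group lies on 1 slide, and was not run. miR-322 in serum is limited by background.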
